A study of Homo sapiens with 4 samples.

Results

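Ribosome biogenesis and nucleolar factors were followed in 786-0 cells, an established human renal cell carcinoma line, after siRNA against SLFN5, a member of the Schlafen family of interferon-regulated genes. The gene set was 46 named genes that encode rRNA processing proteins of the nucleolus and components of RNA polymerase I, out of 57659 genes listed in the deposited table. Members were found by gene symbol, and where a symbol had several rows the row with the highest mean was kept, which applied to BOP1 alone. The study compared 2 libraries of 786-0 cells transfected with control siRNA with 2 libraries of the same cells transfected with siRNA targeting SLFN5, and the series title links SLFN5 to motility and invasiveness. The sources used here name neither the siRNA sequences nor the time after transfection, and all 4 libraries come from a single cell line. Poly(A)-selected RNA was sequenced as single-end reads. Separate cultures behind the replicate libraries are not stated in any label, so the p-values measure a spread between libraries that may be technical.

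Ribosomes are built in the nucleolus. RNA polymerase I transcribes one long rRNA precursor, small nucleolar ribonucleoproteins (snoRNPs) of the box C/D and box H/ACA classes guide its methylation and pseudouridylation, and assembly factors fold, cut and package it into the small (40S) and large (60S) subunits. The genes of this machinery are often expressed in step with cell growth, and many are known targets of the transcription factor MYC, which binds with its partner MAX to the E-box sequence CACGTG.

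The MYC-MAX E-box is shown first because it is a sequence feature that many of the genes share and that played no part in choosing them. RefSeq promoter windows (GRCh38.p14, from 250 bases before to 50 bases after an annotated start) were matched by symbol for 39 of the 46 genes. NOP58, POLR1E, NOLC1, DDX18, RRP12, RRP1B and BOP1 had no matched window. The hexamer CACGTG, which reads the same on both strands, stood in at least 1 window of 17 of these 39 genes (43.6%). Among all tested genes with a window it stood in 1185 of 9326 (12.7%), and among all 35116 windows in 7.26%. A match is a description of letters and not a measured binding site.

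Stretches of 30 bases around the hexamer follow for 12 of the genes, 5' to 3' on the strand of the gene, with CACGTG in capitals. They were chosen to show genes whose transcripts fell (RRP9 to UTP20) beside genes whose change did not pass the test (PES1, NOP14 and NOP10). In the order printed, they lie at chr3:51941892-51941921, minus strand (RRP9), chr10:94362903-94362932, minus strand (NOC3L), chr4:4290068-4290097, minus strand (LYAR), chr12:6568242-6568271, minus strand (NOP2), chr10:68956604-68956633, plus strand (DDX21), chr1:19251807-19251836, plus strand (MRTO4), chr2:28894658-28894687, plus strand (WDR43), chr19:39846356-39846385, minus strand (FBL), chr12:101280083-101280112, plus strand (UTP20), chr22:30591880-30591909, minus strand (PES1), chr4:2963374-2963403, minus strand (NOP14) and chr15:34343130-34343159, minus strand (NOP10).
RRP9: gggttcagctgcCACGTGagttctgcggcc
NOC3L: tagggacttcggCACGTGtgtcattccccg
LYAR: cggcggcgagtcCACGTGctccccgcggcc
NOP2: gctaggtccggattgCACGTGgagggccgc
DDX21: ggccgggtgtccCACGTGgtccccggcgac
MRTO4: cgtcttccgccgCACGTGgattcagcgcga
WDR43: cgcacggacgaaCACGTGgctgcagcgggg
FBL: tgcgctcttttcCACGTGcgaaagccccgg
UTP20: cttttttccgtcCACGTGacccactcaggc
PES1: tccttggcagggCACGTGcgggaggaagtg
NOP14: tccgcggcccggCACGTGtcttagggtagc
NOP10: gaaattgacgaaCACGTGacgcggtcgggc

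Longer upstream stretches are given for NOP10, whose transcript had the second-highest log2 change of the 46, and for NCL, whose transcript fell. Each holds the 250 bases before the annotated start, at chr15:34343137-34343386 on the minus strand for NOP10 and chr2:231464485-231464734 on the minus strand for NCL. The NOP10 stretch holds the hexamer at 2 places, in capitals, and the NCL stretch does not hold it. This pair does not stand for the set. Of the 17 genes with the hexamer in a window 14 fell, UTP20 among them, and of the 22 without it 14 fell. Among other tested genes with a window, 19.2% of those with the hexamer and 19.7% of those without it fell.
NOP10: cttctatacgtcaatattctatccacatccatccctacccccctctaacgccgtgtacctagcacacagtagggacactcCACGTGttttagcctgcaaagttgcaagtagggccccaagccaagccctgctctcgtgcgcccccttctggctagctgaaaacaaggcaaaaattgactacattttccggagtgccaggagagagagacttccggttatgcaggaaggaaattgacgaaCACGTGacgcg
NCL: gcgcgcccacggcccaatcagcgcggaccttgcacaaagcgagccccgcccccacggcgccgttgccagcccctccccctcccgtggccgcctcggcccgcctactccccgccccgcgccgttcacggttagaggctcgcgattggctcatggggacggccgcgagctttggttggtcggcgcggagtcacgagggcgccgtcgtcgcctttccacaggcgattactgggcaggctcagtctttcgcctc

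Depth and sample identity were as follows. Whole counts recovered from the deposited values totalled 13187517 to 31905328 per library, with control 1 being 2.42 times as deep as the shallowest library, control 2. Every one of the 46 genes had at least 52 recovered counts in each library. Values below are the deposited values, which have the form of counts adjusted to one common library size and are called adjusted counts, and a log2 change is SLFN5 siRNA minus control with its standard error (SE) from limma on log2(adjusted count + 1). SLFN5 itself stood at 420.3 and 353 in the controls and 167 and 118 after SLFN5 siRNA (log2 change -1.45, SE 0.21, limma adjusted p = 0.000524). The 6 markers of kidney epithelium and renal carcinoma summed to 115835 and 119559 in the controls and to 89691 and 90336 after SLFN5 siRNA. Most of this sum was vimentin (VIM), which fell from 104237 and 99893 to 74343 and 73630 (log2 change -0.46, limma adjusted p = 0.014). The VIM call was lost whichever library was left out, with log2 changes of -0.49 to -0.43. PAX8, KRT8 and KRT18 were present in every library and did not pass (log2 changes -0.09, -0.03 and 0.26), nor did PAX2, at 50.8% of its control mean (log2 change -0.99, adjusted p = 0.0884). CA9 was at or near 0 in all libraries. Among leukocyte markers, CD3E was at 0 counts and PTPRC at or near 0 in every library, and ITGAM stood at 11.2 and 2.21 in the controls and 30.6 and 17.8 after SLFN5 siRNA. The 3 endothelial markers summed to at most 2.61, with PECAM1 at 0, and the 4 fibroblast markers to 85.0 and 156 in the controls and 59.0 and 95.0 after SLFN5 siRNA. Of the fibroblast markers, COL3A1 and DCN were near 0 in every library. The noncoding RNA RN7SK, which lacks a poly(A) tail, held 2.20% and 2.53% of the counts in the controls and 3.54% and 3.76% after SLFN5 siRNA, and the part of RN7SK and of these markers in the results was not tested.

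Transcripts of the ribosome biogenesis genes were mostly lower after SLFN5 siRNA. All 46 passed the filter on low values, and 34 of them (73.9%) fell at an adjusted p under 0.05, whereas 1, NOLC1, rose and 11 did not pass. Over all 15640 genes tested by limma, 16.3% were lower and 13.3% higher at the same threshold. The median log2 change was -0.79 over the 46 genes and -0.03 over all genes tested. Both SLFN5 siRNA libraries lay below both control libraries for 41 of the 46 genes, which held for 34.1% of all genes tested, while 2 lay above and 3 overlapped. Together the 46 genes held 0.737% and 0.828% of the counts in control 1 and control 2 (mean 0.783% ± 0.064, SD, n = 2), against 0.481% and 0.538% in the SLFN5 siRNA libraries (mean 0.510% ± 0.041, SD, n = 2). In bulk RNA, fewer cells that express a gene and less RNA per cell cannot be told apart. The number of calls changed most with a pair of settings, and by less with some of the others. With no filter on low values, which takes the genes tested to 57659, limma called 0 of the 46 (38 at an unadjusted p under 0.05). With no trend of the spread on the level it called 12 lower and 1 higher, beside 3.26% lower and 4.30% higher over all genes tested in that setting. The 12 were 6 genes of 60S assembly, 3 of the small subunit and 3 abundant nucleolar proteins. In that setting 0 genes of the box C/D, box H/ACA and RNA polymerase I groups were called.

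**Figure D1:**
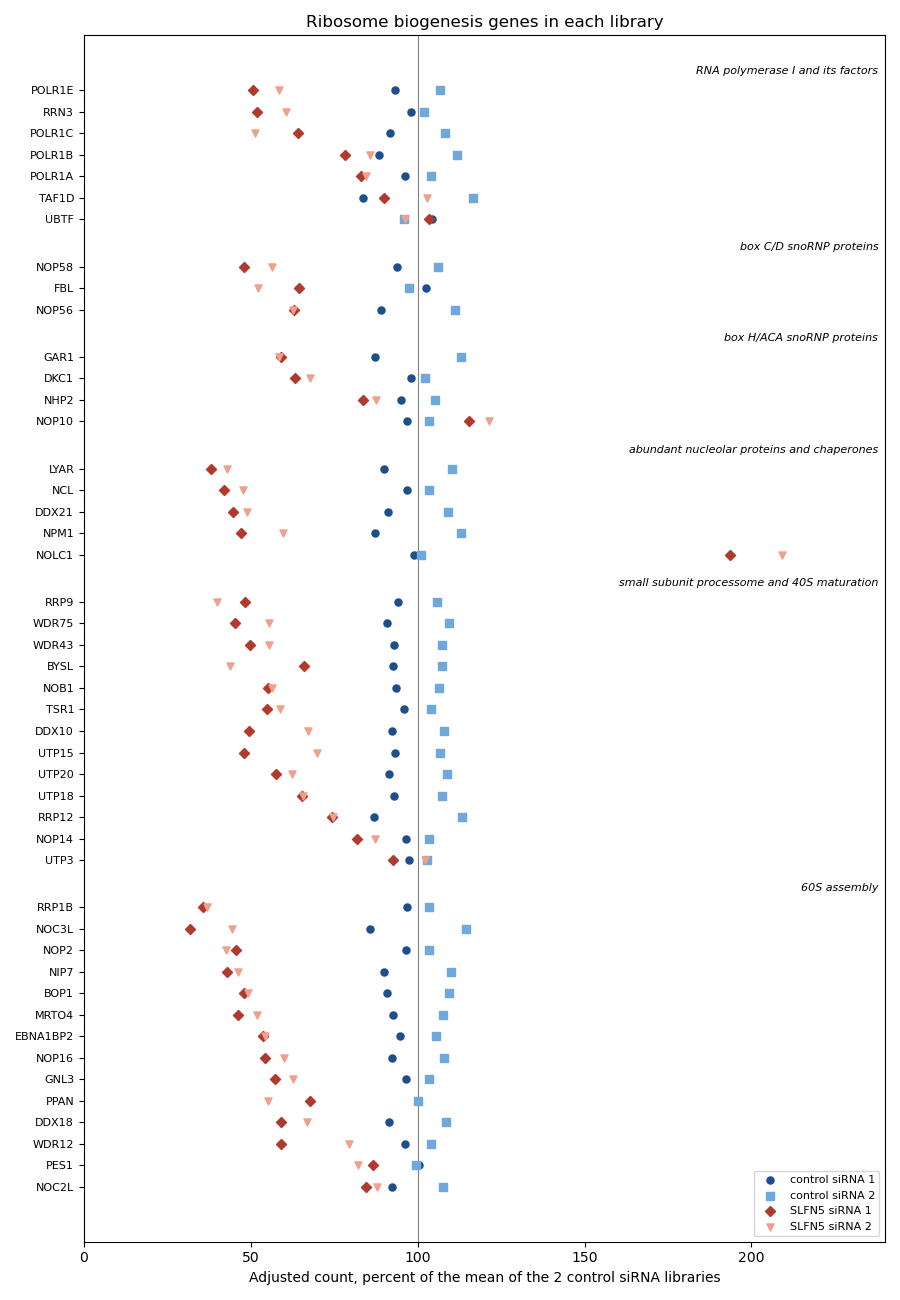
Adjusted count of each of the 46 genes in each library as a percent of the mean of the 2 control siRNA libraries (horizontal axis), with genes in rows grouped by role. Most SLFN5 siRNA points (diamonds and triangles) lie below both control points (circles and squares), NOLC1 lies at 201% on average, and UBTF, TAF1D and UTP3 overlap.

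The genes of rRNA synthesis were divided. Of the 7 genes of RNA polymerase I and its factors, 3 fell and 4 did not pass (median log2 change -0.28). Over all genes tested 16.3% were lower. RRN3, the factor that makes RNA polymerase I competent to start transcription, stood at 1395 and 1450.1 in the controls and 739 and 863 after SLFN5 siRNA (log2 change -0.83, SE 0.13, limma adjusted p = 0.000752). UBTF, which binds and opens the rRNA gene promoter, stood at 1911 and 1755 in the controls and 1896 and 1760.2 after SLFN5 siRNA, so that the groups overlapped (log2 change -0.003, SE 0.12, adjusted p = 0.987). The per-library log2 ratio of RRN3 to UBTF was -0.45 and -0.28 in the controls and -1.36 and -1.03 after SLFN5 siRNA. Both values after SLFN5 siRNA are thus below both controls.

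Subunits of the polymerase differed in the size of their change. POLR1A, the largest catalytic subunit, had 2863 and 3097 in the controls and 2473 and 2514 after SLFN5 siRNA and missed the threshold (log2 change -0.26, SE 0.11, limma adjusted p = 0.102). POLR1B, the other catalytic subunit, had 914 and 1155 in the controls and 808 and 886 after SLFN5 siRNA and missed it too (log2 change -0.28, SE 0.15, adjusted p = 0.173), although in both genes the 2 SLFN5 siRNA values were the lowest. By contrast, POLR1E, a subunit particular to RNA polymerase I, fell from 1071 and 1225 to 583 and 670.0 (log2 change -0.87, SE 0.14, adjusted p = 0.000849). POLR1C, which is shared with RNA polymerase III, fell from 798 and 939.8 to 558 and 445 (log2 change -0.79, SE 0.16, adjusted p = 0.00312). Neither gene overlapped between the groups. TAF1D, a subunit of the promoter selectivity factor SL1, had 918 and 1280.2 in the controls and 987 and 1130.1 after SLFN5 siRNA, with overlapping groups (log2 change -0.04, SE 0.16, adjusted p = 0.89). Its sign, like those of UBTF and the processome gene UTP3, turned under other scalings, so no direction is given for these 3 genes. In each library the log2 ratio of POLR1E to POLR1A was lower after SLFN5 siRNA, at -2.08 and -1.91 against -1.42 and -1.34 in the controls.

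All 3 protein genes of the box C/D snoRNPs fell (3 of 3 tested, median log2 change -0.78), beside 16.3% lower over all genes tested. With no trend of the spread on the level, 0 of the 3 were called. NOP58, a core scaffold protein of these particles, stood at 3603 and 4077 in the controls and 1845 and 2159 after SLFN5 siRNA (log2 change -0.94, SE 0.12, limma adjusted p = 0.000242). Its paralogue NOP56 had 4725 and 5907 in the controls and 3352 and 3333 after SLFN5 siRNA (log2 change -0.66, SE 0.12, adjusted p = 0.00218). Fibrillarin (FBL), the methyltransferase of the particle, had 1095 and 1041 in the controls and 688 and 558 after SLFN5 siRNA (log2 change -0.78, SE 0.14, adjusted p = 0.00188). In none of the 3 did the groups overlap.

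The box H/ACA proteins were split. DKC1 (dyskerin), the pseudouridine synthase of the particle, stood at 2851 and 2969.9 in the controls and 1836 and 1969 after SLFN5 siRNA (log2 change -0.61, SE 0.11, limma adjusted p = 0.00179). GAR1, a small partner protein, had 173 and 224 in the controls and 118 and 116 after SLFN5 siRNA and fell by 0.75 (SE 0.22, adjusted p = 0.0252). The GAR1 decrease no longer passed when control 2 (adjusted p = 0.270), SLFN5 siRNA 1 (0.0565) or SLFN5 siRNA 2 (0.0566) was left out, nor by limma-voom on recovered counts (0.0522). NHP2 and NOP10, the remaining core proteins, did not pass. NHP2 had 2371 and 2628 in the controls and 2092 and 2186 after SLFN5 siRNA (log2 change -0.22, SE 0.11, adjusted p = 0.166). NOP10 stood at 998 and 1065 in the controls and 1189 and 1252 after SLFN5 siRNA, with both SLFN5 siRNA values above both controls (log2 change 0.24, SE 0.12, adjusted p = 0.162). Within single libraries, the log2 ratio of DKC1 to NOP10 was 1.51 and 1.48 in the controls, against 0.63 and 0.65 after SLFN5 siRNA. The ratio was thus lower in both SLFN5 siRNA libraries (change -0.86), more than it differed between libraries of a group.

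Of 5 abundant nucleolar proteins 4 fell and 1 rose, beside 16.3% lower and 13.3% higher over all genes tested. Nucleolin (NCL), which binds pre-rRNA and rRNA gene chromatin, stood at 16957 and 18135 in the controls and 7381 and 8341 after SLFN5 siRNA (log2 change -1.16, SE 0.11, limma adjusted p = 3.89e-05). Nucleophosmin (NPM1), a histone chaperone that also carries ribosomal proteins, had 18773 and 24302 in the controls and 10130.5 and 12819 after SLFN5 siRNA (log2 change -0.91, SE 0.15, adjusted p = 0.00094). The RNA helicase DDX21, which links RNA polymerase I transcription to rRNA processing, had 12749.5 and 15275 in the controls and 6253 and 6859 after SLFN5 siRNA (log2 change -1.09, SE 0.12, adjusted p = 8.61e-05). In each of these 3 genes both SLFN5 siRNA libraries lay below both controls. The nucleolar zinc finger protein LYAR had 1279.6 and 1568 in the controls and 539.8 and 608 after SLFN5 siRNA (log2 change -1.30, SE 0.14, adjusted p = 8.98e-05). For these 4 genes the SLFN5 siRNA mean was at 40.3% to 53.3% of the control mean. Per kilobase of annotated exon, NPM1, DDX21 and NCL had the highest control levels of the 45 genes with a length, at 5626, 2791 and 2532 adjusted counts per kilobase.

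NOLC1 (Nopp140) went the other way. This nucleolar phosphoprotein accompanies snoRNPs between the nucleolus and Cajal bodies. Its adjusted count was 1649 and 1686 in the controls and 3229.6 and 3486 after SLFN5 siRNA, or 1668 ± 26.3 against 3358 ± 181 (SD, n = 2). That is a 2.01-fold level (log2 change 1.01, SE 0.11, limma adjusted p = 8.98e-05), with both SLFN5 siRNA libraries far above both controls. The log2 ratio of NCL to NOLC1 was accordingly 3.36 and 3.43 in the controls but 1.19 and 1.26 after SLFN5 siRNA.

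**Figure D2:**
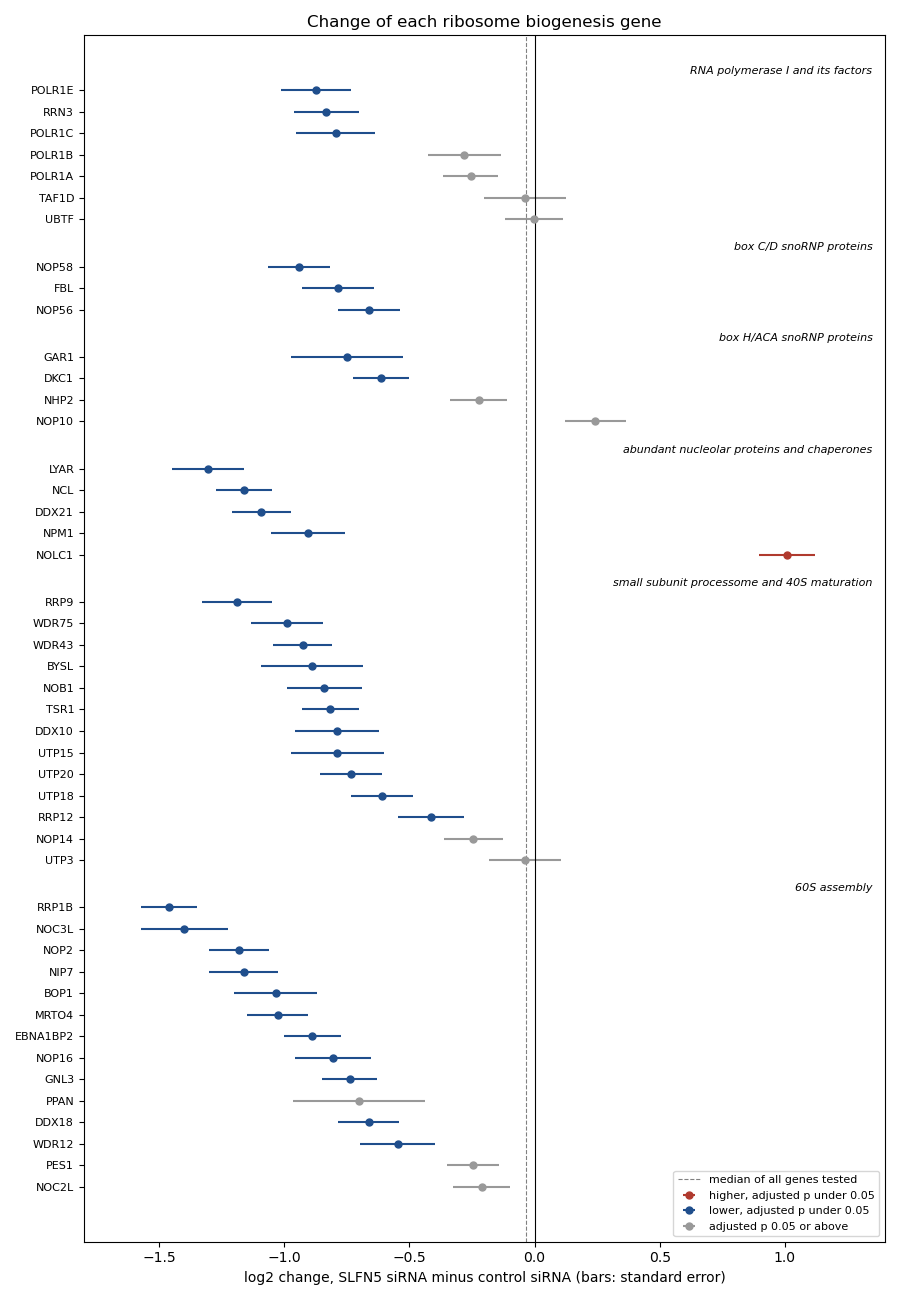
Log2 change of each gene (SLFN5 siRNA minus control siRNA, horizontal axis, bars give the standard error), grouped by role and coloured by the limma call. The values run from -1.46 for RRP1B to 1.01 for NOLC1, against a median of -0.03 over all genes tested (dashed line).

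Small subunit factors fell with few exceptions: 11 of 13 were lower, 0 higher and 2 did not pass (median log2 change -0.79). The lower share over all genes tested was 16.3%. RRP9, a protein of the U3 snoRNP that starts small subunit assembly, stood at 1517 and 1706 in the controls and 776 and 641 after SLFN5 siRNA (log2 change -1.19, SE 0.14, limma adjusted p = 0.00012). Among the proteins that join the precursor earliest, WDR75 had 1798 and 2164 in the controls and 897 and 1101 after SLFN5 siRNA (log2 change -0.99, SE 0.14, adjusted p = 0.000446). WDR43, of the same early group, had 4674 and 5395 in the controls and 2508 and 2786 after SLFN5 siRNA (log2 change -0.93, SE 0.12, adjusted p = 0.000206). The groups did not overlap, and in all 3 genes the SLFN5 siRNA mean was at 44.0% to 52.6% of the control mean.

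Late factors of the 40S subunit fell as well. NOB1, the nuclease that makes the 3' end of 18S rRNA, went from 605 and 688 to 357 and 364 (log2 change -0.84, limma adjusted p = 0.00166). BYSL and TSR1, which act on the 40S precursor, fell by 0.89 and 0.82. Among the earlier processome genes, the helicase DDX10 fell by 0.79, UTP15 by 0.79 and UTP20 by 0.73, each with both SLFN5 siRNA libraries below both controls. UTP18 fell by 0.61 but no longer passed once control 2 was left out (adjusted p = 0.0524). RRP12 stood at 3305 and 4312 in the controls and 2828 and 2843 after SLFN5 siRNA (log2 change -0.41, limma adjusted p = 0.0349), and this call was lost without control 2 (0.433), SLFN5 siRNA 1 (0.0926) or SLFN5 siRNA 2 (0.0853) and with each other scaling (0.0604 to 0.0763) or voom (0.0632). NOP14, with 1584 and 1696 in the controls and 1339 and 1430.0 after SLFN5 siRNA, missed the threshold without overlap between the groups (log2 change -0.24, adjusted p = 0.145). UTP3, at 563 and 593 in the controls and 535 and 591 after SLFN5 siRNA, overlapped (log2 change -0.04, adjusted p = 0.87).

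Large subunit assembly genes included the 2 largest decreases of the set, in RRP1B and NOC3L. Of 14 genes, 11 fell, 0 rose and 3 did not pass (median log2 change -0.85), beside 16.3% lower over all genes tested. In all 14 both SLFN5 siRNA values lay below both controls, which held for 34.1% of all genes tested. RRP1B, a nucleolar protein of the 60S precursor, stood at 3465 and 3698 in the controls and 1276 and 1323 after SLFN5 siRNA (log2 change -1.46, SE 0.11, limma adjusted p = 1.05e-05), which is 36.3% of the control mean. NOC3L had 2336 and 3119 in the controls and 867 and 1206 after SLFN5 siRNA (log2 change -1.40, SE 0.17, adjusted p = 0.000178). NOP2, an rRNA cytosine methyltransferase, had 2163 and 2319.8 in the controls and 1020.3 and 956 after SLFN5 siRNA (log2 change -1.18, SE 0.12, adjusted p = 5.07e-05). In all 3 genes the lowest control value was above the highest SLFN5 siRNA value. NIP7, a small factor of the 60S precursor, had 1463 and 1788 in the controls and 695 and 750.3 after SLFN5 siRNA (log2 change -1.16, SE 0.14, adjusted p = 0.000129). MRTO4, which holds the place of a stalk protein on the 60S precursor, had 3775 and 4380.4 in the controls and 1887 and 2109 after SLFN5 siRNA (log2 change -1.03, SE 0.12, adjusted p = 0.000123). In these 5 genes the SLFN5 siRNA mean was between 36.3% and 49.0% of the control mean, and the groups did not overlap.

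The PES1-BOP1-WDR12 complex, which acts on the 60S precursor as a unit, had members of unequal change. BOP1 stood at 473 and 571 in the controls and 249 and 257 after SLFN5 siRNA (log2 change -1.03, SE 0.17, limma adjusted p = 0.000899). WDR12 had 1518 and 1639 in the controls and 930.4 and 1253 after SLFN5 siRNA (log2 change -0.55, SE 0.15, adjusted p = 0.0167), and this decrease no longer passed without control 2 (limma adjusted p = 0.0578) or SLFN5 siRNA 1 (log2 change -0.33, adjusted p = 0.108). PES1 had 4403 and 4363 in the controls and 3800.0 and 3593 after SLFN5 siRNA and missed the threshold (log2 change -0.25, SE 0.11, adjusted p = 0.102). Per library, the log2 ratio of BOP1 to PES1 was -3.22 and -2.93 in the controls and -3.92 and -3.80 after SLFN5 siRNA. The BOP1 share thus lay lower in both SLFN5 siRNA libraries, whereas the WDR12 to PES1 ratio, at -1.54 and -1.41 against -2.03 and -1.52, overlapped between the groups. BOP1 has a second row in the table, which was at 0 counts in every library.

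The other 60S genes fell by 0.89 (EBNA1BP2), 0.81 (NOP16), 0.74 (GNL3, nucleostemin) and 0.66 (the helicase DDX18) on the log2 scale. PPAN, at 109.9 and 110.0 in the controls and 74.6 and 60.7 after SLFN5 siRNA, was the least deeply counted, with 52 recovered counts in its lowest library, and missed the threshold (log2 change -0.70, SE 0.26, limma adjusted p = 0.0662). NOC2L had 5405 and 6295 in the controls and 4948 and 5129 after SLFN5 siRNA and missed the threshold (log2 change -0.21, SE 0.11, adjusted p = 0.186).

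**Figure D3:**
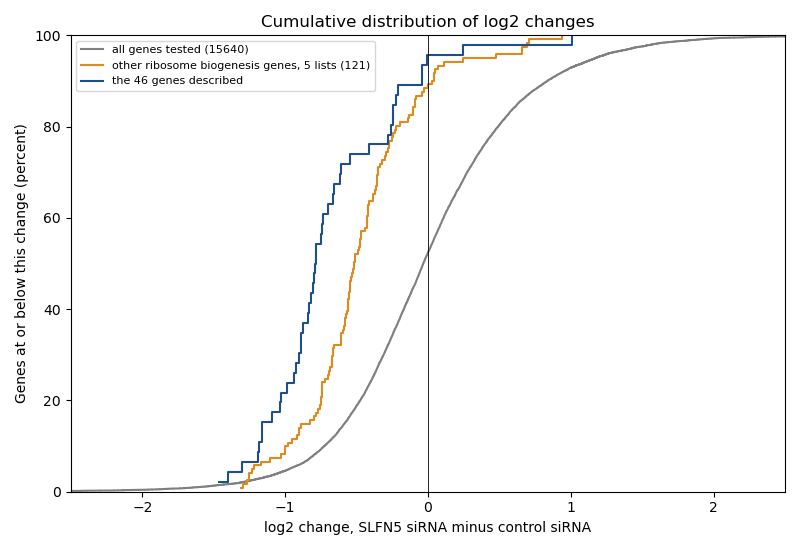
Cumulative percent of genes (vertical axis) at or below each log2 change (horizontal axis, SLFN5 siRNA minus control siRNA) for the 46 genes, 121 other ribosome biogenesis genes in 5 lists and all 15640 genes tested. The medians are -0.79, -0.51 and -0.03.

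Ribosome biogenesis genes outside the 46 were measured as well. In 5 lists of such genes, 73 of 121 tested fell (60.3%), 6 rose and 42 did not pass, with a median log2 change of -0.51, beside 16.3% lower and 13.3% higher over all genes tested. Fewer were lower without control 2, where the median log2 change was -0.44. With no intensity trend 7 of the 121 were lower, beside 3.26% lower over all genes tested in that setting. Among 40 other small subunit factors 28 fell and 2 rose (median -0.55). Fewer were lower without control 2 (median -0.50) or without SLFN5 siRNA 1 (median -0.47). PNO1 and WDR3, both needed for the 40S subunit, fell by 1.27 (SE 0.17, limma adjusted p = 0.000265) and 1.25 (SE 0.15, adjusted p = 0.000151). The helicase DDX47, with a control mean of only 47.2 adjusted counts, fell by 1.31 (adjusted p = 0.0402), and lost this call when control 2 (-0.91, adjusted p = 0.391) or SLFN5 siRNA 2 (-1.11, adjusted p = 0.113) was left out. The GTPase BMS1 rose from 1108 ± 24.7 to 1751 ± 28.8 adjusted counts (SD, n = 2; log2 change 0.66, adjusted p = 0.00155) and the helicase DHX37 by 0.69 (adjusted p = 0.00435).

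Among 44 other 60S factors 27 fell and 1 rose (median log2 change -0.50), and fewer were lower without control 2 (median -0.41). PAK1IP1, BRIX1 and MKI67IP, nucleolar proteins of the 60S precursor, fell by 1.29, 1.23 and 1.22 on the log2 scale (limma adjusted p = 0.000178, 0.000114 and 0.000197). GLTSCR2, a nucleolar protein also known as NOP53, stood at 846 and 784 in the controls and 1339 and 1237 after SLFN5 siRNA and rose by 0.66 (SE 0.13, adjusted p = 0.0025). Of 9 other RNA polymerase I genes 2 fell, 0 rose and 7 did not pass (median -0.36), and the lower count changed with the library left out. The lower share (22.2%) is near the 16.3% over all genes tested, and nothing is read from it about this list. TWISTNB, a subunit of the polymerase, fell by 0.72 (adjusted p = 0.0014). ZNRD1, another subunit, fell by 1.17 (adjusted p = 0.0139), and lost this call when control 2 (-0.86, adjusted p = 0.0931) or SLFN5 siRNA 2 (-0.77, adjusted p = 0.0779) was left out.

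Genes that build the snoRNPs and trim rRNA were also lower more often than higher. Of 11 snoRNP assembly genes, 6 fell and 1 rose (median log2 change -0.56), beside 16.3% lower and 13.3% higher over all genes tested. ZNHIT6, an assembly factor of box C/D particles, fell by 1.25 (SE 0.13, limma adjusted p = 6.3e-05), the ATPase RUVBL1 by 0.78 (adjusted p = 0.000377) and NHP2L1, a core protein that binds box C/D RNAs, by 0.74 (adjusted p = 0.000704). PIH1D1, a cofactor of the RUVBL ATPases, rose by 0.47 (adjusted p = 0.0206), a call lost when control 1 (0.141), control 2 (0.0565) or SLFN5 siRNA 1 (0.0831) was left out. Of 17 genes of the nuclear exosome, the 3' to 5' nuclease complex that trims rRNA, and of rRNA trimming, 10 fell and 2 rose (median -0.48). Fewer of the 17 were lower without control 2 (median -0.38) or without SLFN5 siRNA 1 (median -0.42). The exosome ring genes EXOSC4, EXOSC7 and EXOSC9 fell by 0.80, 0.75 and 0.69 (adjusted p = 0.000689, 0.00183 and 0.00248). Another subunit, EXOSC6, stood at 492 and 475 in the controls and 959 and 899 after SLFN5 siRNA and rose by 0.94 (SE 0.14, adjusted p = 0.000446), as did the exonuclease ISG20L2 by 0.71 (adjusted p = 0.00524).

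**Figure D4:**
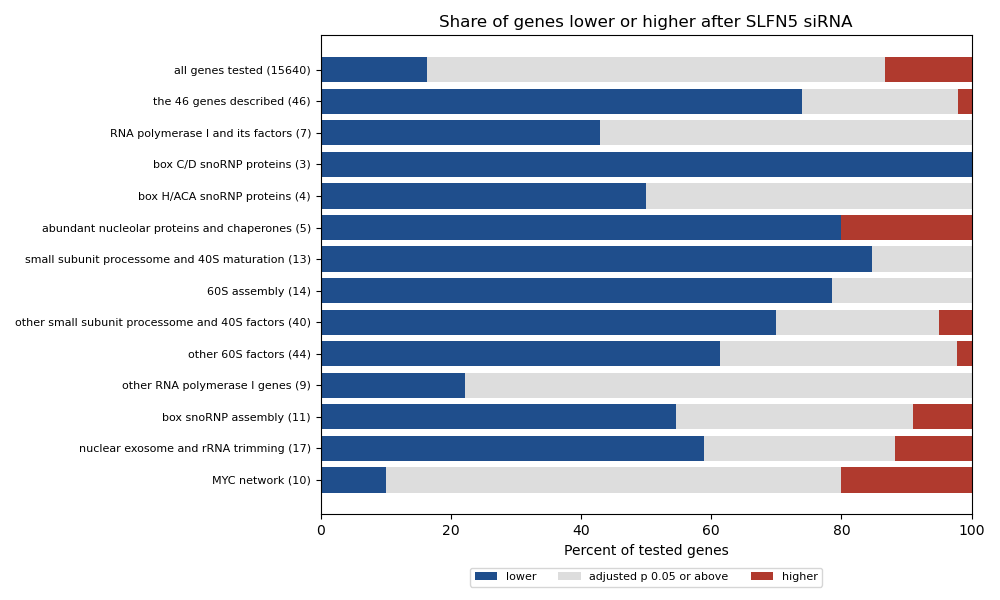
Percent of tested genes (horizontal axis) that were lower (blue), higher (red) or at an adjusted p of 0.05 or above (grey) after SLFN5 siRNA, for all genes tested, the 46 genes, their role groups and the lists of other genes, with the number tested in brackets. The lower share is 16.3% over all genes tested and 73.9% over the 46 genes.

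MYC and its network were read out beside these genes because MYC is a known activator of many of them. MYC transcripts stood at 2404 and 3025 in the controls and 1840.2 and 1622 after SLFN5 siRNA (log2 change -0.64, SE 0.13, limma adjusted p = 0.00425), with no overlap between the groups. The MYC change ran from -0.81 to -0.48 over left-out libraries. With no intensity trend 0 genes of the network list, MYC included, were called. MYC has MAX as its partner. MAX had 607 and 558 in the controls and 533 and 540.2 after SLFN5 siRNA and missed the threshold (log2 change -0.12, adjusted p = 0.581). Of the 10 genes in the list, MYC was the 1 that fell and 2 rose, MXD3 and MXD4, which encode MAX partners that oppose MYC. These counts are near the shares over all genes tested, 16.3% lower and 13.3% higher, and nothing is read from them about the network. MXD4 stood at 683 and 423 in the controls and 1423 and 1082 after SLFN5 siRNA (log2 change 1.21, SE 0.21, adjusted p = 0.00136), and MXD3 at 347 and 322 in the controls and 652 and 530.2 after SLFN5 siRNA (log2 change 0.81, SE 0.16, adjusted p = 0.00321). The other MAX partners MXD1, MXI1, MNT and MGA did not pass, with log2 changes of 0.31, -0.31, 0.48 and -0.02. Whether these levels have a part in the decreases was not tested.

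**Figure D5:**
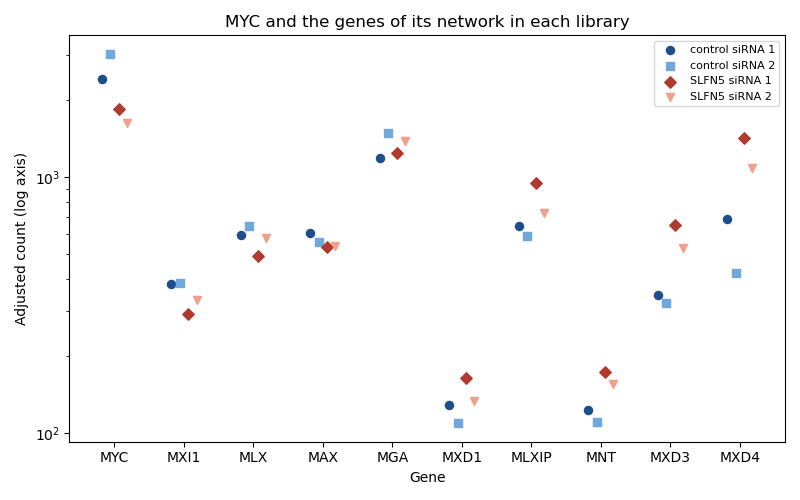
Adjusted count on a log axis (vertical) of MYC and 9 genes of its network (horizontal) in each of the 4 libraries. MYC lies lower and MXD3 and MXD4 lie higher in both SLFN5 siRNA libraries than in both controls.

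Decreases were found in genes with and without the E-box, and the difference between these was not tested. Of the 17 genes with CACGTG in a promoter window 14 fell (median log2 change -0.89), and of the 22 with a window but no hexamer 14 fell (median -0.74). In the main fit the log2 change was negative in 16 of the 17 genes with the hexamer and in all 22 without it. Those 22 include UBTF, TAF1D and UTP3, whose sign turned under other scalings, so no direction is given for these. NOP10, with the hexamer at 2 places, had a positive log2 change in that fit, of 0.24. EBNA1BP2 and UTP18 also held it at 2 places and fell by 0.89 and 0.61. NCL and NPM1, without it in their windows, fell by 1.16 and 0.91. Among tested genes other than the 46, those with the hexamer had a median of -0.03 and were lower in 19.2% of 1168 cases, and those without it had a median of -0.04 and were lower in 19.7% of 8122 cases.

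Many of the genes carry snoRNA genes in their introns or share exon bases with neighbours. By the GENCODE v29 annotation, matched by Ensembl identifier for 45 genes, 10 held 36 snoRNA genes on their own strand. The entry in POLR1C, counted among these, is typed as a small Cajal body RNA. Of the 36 snoRNA genes 11 were tested, all 11 with a negative log2 change, against 8200 of the 15640 genes tested. The 11 lie inside NCL, GNL3, NOP58, PPAN, TAF1D and TSR1, several in one gene, so they are not 11 separate observations. Of the 11, 2 fell, a share near the 16.3% over all genes tested. They were SNORD11 inside NOP58 (log2 change -1.01, limma adjusted p = 0.0148) and SNORD105B inside PPAN (log2 change -0.96, adjusted p = 0.00355), both chosen after their values were seen. SNORD105B had a mean of 2159 adjusted counts over the 4 libraries. The 10 genes with a snoRNA gene inside had a median log2 change of -0.77 and the 36 others one of -0.79. In this annotation 21 genes shared exon bases with another gene, 9 of them over more than 10% of their own, such as NIP7 with COG8 and PPAN with PPAN-P2RY11. The kit is not one that marks strand, so reads from overlapping exons may have been assigned to either gene or to none.

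One library-level pattern went along with the genes. Same-numbered libraries of the groups share a code in their titles, whose meaning is not given, and a pairing was not assumed. In the controls, 43 of the 46 were higher in control 2 than in control 1 (93.5%, against 46.2% of all genes tested), and after SLFN5 siRNA 36 of the 46 were higher in library 2 than in library 1 (78.3%, against 50.3%). The median gap between replicates was 0.19 in the controls and 0.11 after SLFN5 siRNA on the log2 scale, smaller than the median change of -0.79 between the groups. Without control 2 the median change was -0.69, with 30 of the 46 genes lower, and without control 1 it was -0.88, with 34 lower.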

How the data were processed

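RNA-seq libraries of 786-0 cells were analysed, 2 with control siRNA and 2 with SLFN5 siRNA; the design text mentions triplicates, and the 4 libraries listed are used here. Per the submitters' processing notes, the build was hg19 and the submitters used edgeR. Aligner, counter and annotation: not given in the sources used here. In form, the deposited signal values are counts adjusted by the authors to one common library size; this is read from the values, since inverting such an adjustment returned whole counts for all 230636 values (relative tolerance 1e-06), with totals of 13187517 to 31905328.

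The 15640 genes that reached a value of 10 in 2 or more libraries were tested with limma 3.58.1 (R 4.3.3) on log2(value + 1), with an intensity trend and Benjamini-Hochberg adjustment at 0.05 over all of them. A fold on this scale understates the change of low genes. The test was checked on simulated data. The 15 alternatives covered pseudocounts, filters, scalings, variance settings, the replicate block, left-out libraries and voom on recovered counts.

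The members and lists were chosen with earlier results of these data known. Named genes were the 12 largest called decreases and any called increase, the most abundant member of each role, a list of widely known members, and up to 3 called genes in each direction per other list; the remaining members are given so that all are accounted for. Rows with an identifier but no gene symbol (2682) stayed in the table. Promoter windows come from RefSeq (GRCh38.p14) and exon lengths from GENCODE v29 (GRCh38), neither being the authors' build, so no coordinate was joined to the deposited values. One leukocyte marker is not reported here.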

Additional observations from a re-analysis of the deposited data

How the results depend on the processing

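Over 13 of the 15 alternatives 31 members kept their call (30 lower, 1 higher); the others were no filter on low values and no intensity trend. With no filter, limma called 0 members lower and 0 higher, called 0 and 0 among all genes (6271 at an unadjusted p under 0.05), and SLFN5 had log2 -1.45 with adjusted p = 0.185; that setting tests 57659 genes. With no intensity trend 12 members were lower, and among all genes 510 were lower and 672 higher; the cause was not tested. Leaving out one library gave 30 to 34 members lower and a members' median of -0.88 to -0.69, with 1588 to 2341 of all genes lower and 1346 to 1767 higher, the lowest without control 2. A lone library is then assumed to vary like the other group. The log2 change of UBTF turned to 0.034 with TMM, 0.026 with median-of-ratios factors, 0.065 with upper-quartile scaling and 0.026 by voom, and ran from -0.065 to 0.058 over left-out libraries. That of TAF1D turned to 0.0305 with upper-quartile scaling and 0.0301 by voom, and ran from -0.28 to 0.20 over left-out libraries. That of UTP3 turned to 0.029 and 0.0027, and ran from -0.11 to 0.033. The replicate block gave 41 members lower and 2 higher, beside 23.6% lower and 19.2% higher over all genes tested in that setting. Among the other RNA polymerase I genes it took the lower count from 2 to 7. Same-numbered libraries of the groups share a code in their titles whose meaning is not given, and r was 0.19 across 15640 genes between the groups' replicate 2 minus 1 differences; with 2 pairs, a pairing was not assumed. Depth limits PPAN and GAR1 most among the members.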
